A study of Homo sapiens with 10 samples.

Results

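The aminoacyl-tRNA synthetase genes encode the enzymes that join each amino acid to its tRNA. The set comprised 36 listed genes of 19821 protein-coding genes on chromosomes 1 to 22 and X of GRCh38, of which 20 encode cytosolic enzymes and 16 encode mitochondrial enzymes. For each gene, peaks of POLR1A, POLR2A, H3K4me3 and H3K9me3 lying within 1 kb of either end of the RefSeq gene were collected. The peaks came from CUT&Tag, in which an antibody directs a transposase (pAG-Tn5) that inserts adapters into nearby DNA. All samples were HCT116 cells labelled WT, an established human colorectal carcinoma line, and the labels name no treatment. POLR1A, POLR2A and H3K9me3 had 3 samples each and H3K4me3 had 1, and the series asks how RNA polymerases I and II lie relative to each other and to the chromatin around them. Each replicate used another day and a newly thawed vial of the same line, so the samples represent 1 line. Each target was analysed from 1 peak list, and control antibody samples were not analysed here. No spread between replicates could therefore be given and no test between conditions was possible.

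Every synthetase is encoded in the nucleus and transcribed by RNA polymerase II, of which POLR2A is the largest subunit. The enzymes of the mitochondrial matrix are made in the cytosol and imported. POLR1A is the largest subunit of RNA polymerase I, the enzyme known for transcribing the ribosomal RNA genes in the nucleolus. H3K4me3 is a histone mark found at active promoters, and H3K9me3 is a mark of heterochromatin. Many cytosolic synthetase genes are known targets of ATF4, the transcription factor of the amino acid response.

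On chromosomes 1 to 22 and X the lists held 3812 peaks for POLR1A, 19997 for POLR2A, 17181 for H3K4me3 and 16414 for H3K9me3, and the read depth behind them is unknown. Fold enrichments are the authors' values and are used only within each list. As a check of the labelled cell type, 7 of 10 epithelial and intestinal marker genes had POLR2A and 7 had H3K4me3 at a gene end, while CDX1, VIL1 and LGR5 had neither. The interval for 7 of 10 (34.8 to 93.3%) includes the shares of all protein-coding genes, 41.3% for POLR2A and 54.6% for H3K4me3, so the count alone does not set these markers apart. Of 16 marker genes of other cell types, 2 had POLR2A and 2 had H3K4me3, and no gene of either list had POLR1A, where 11.2% of all genes had it.

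POLR1A was found at 9 of the 36 genes, or 25% (95% Clopper-Pearson interval 12.1 to 42.2%), against 11.2% of all protein-coding genes. POLR2A was found at 27 genes, or 75% (57.8 to 87.9%), against 41.3% of all genes. H3K4me3 was found at 31 genes, or 86.1% (70.5 to 95.3%), against 54.6%. H3K9me3 was found at 2 genes, FARSB and LARS1, or 5.56% (0.68 to 18.7%), against 2.7%. The intervals cover counting error over genes only. POLR1A and POLR2A lay at the same gene end at 9 of the 36 genes (25%), against 10.7% of all genes. These were all 9 genes with POLR1A. Over all protein-coding genes, 2114 of the 2213 with POLR1A had POLR2A at the same end, so this pairing is not particular to the set.

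The 9 genes fell into both compartments. The cytosolic ones were AARS1, FARSB, NARS1, TARS1 and YARS1, which charge tRNAs with alanine, phenylalanine (as the beta subunit), asparagine, threonine and tyrosine. The mitochondrial ones were CARS2, EARS2, PARS2 and WARS2, for cysteine, glutamate, proline and tryptophan. All 9 carried POLR1A, POLR2A and H3K4me3, as did 2114 of the 2213 protein-coding genes with POLR1A. FARSB carried H3K9me3 as well. A further 17 genes carried POLR2A and H3K4me3 without POLR1A, among them CARS1, EPRS1, GARS1, HARS1, HARS2 and TARS2. LARS1 had POLR2A, H3K4me3 and H3K9me3. These 18 genes without POLR1A are 50% of the set, where 29.1% of all genes had POLR2A and H3K4me3 without POLR1A. AARS2, FARSA, IARS2 and QARS1 had H3K4me3 alone, as did 14.35% of all genes. FARS2, IARS1, SARS2, VARS1 and VARS2 had no peak of any target within 1 kb of an end, and 42.8% of all genes had none.

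**Figure D1:**
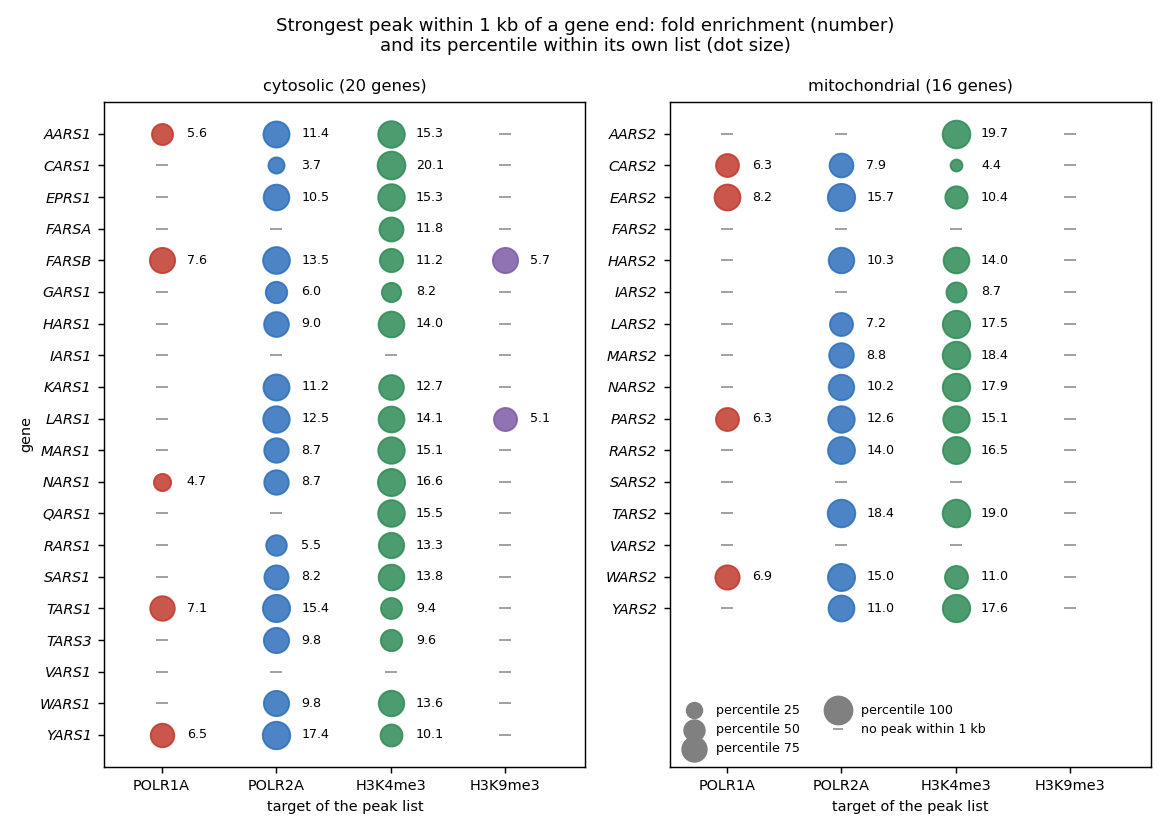
Fold enrichment of the strongest peak within 1 kb of a gene end for each of the 36 synthetase genes, in rows split into cytosolic (left) and mitochondrial (right) genes, with 1 column per target. The number is the authors' fold enrichment, the dot size is the peak's percentile within its own list and a dash is no peak within 1 kb. POLR1A appears in 9 rows, each of which also has POLR2A.

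Of the 5 genes without a peak, 4 lay in stretches where no list held any peak. IARS1, the cytosolic isoleucine enzyme, lay in a stretch of 521.3 kb between the nearest peaks that held 6 other protein-coding genes. VARS1, the cytosolic valine enzyme, lay in a stretch of 99.63 kb with 7 others. SARS2, the mitochondrial serine enzyme, lay in a stretch of 486.9 kb with 15 others. VARS2, the mitochondrial valine enzyme, lay in a stretch of 3138 kb on chromosome 6 with 94 others. Peaks named to other contigs of chromosome 6, 67 of H3K4me3 and 17 of POLR2A, could not be placed on the chromosome, and their part in the absence was not tested. Without these 4 genes, POLR1A was at 9 of 32 genes (28.1%), POLR2A at 27 (84.4%) and H3K4me3 at 31 (96.9%). Leaving out peak-free genes raises shares by construction, and over the 13662 protein-coding genes with any peak in the gene or its windows they were 16.2%, 59.96% and 79.3%.

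The cytosolic and mitochondrial genes had POLR1A in equal shares at the authors' threshold. It was found at 5 of 20 cytosolic genes, or 25% (8.66 to 49.1%), and at 4 of 16 mitochondrial genes, or 25% (7.27 to 52.4%). POLR2A was found at 16 of 20 cytosolic genes (80%; 56.3 to 94.3%) and 11 of 16 mitochondrial genes (68.8%; 41.3 to 89.0%). H3K4me3 was found at 18 cytosolic genes (90%; 68.3 to 98.8%) and 13 mitochondrial genes (81.3%; 54.4 to 96.0%). The intervals overlapped for each target, and the difference itself was not tested. The order was not stable: among the 3812 strongest peaks of each list, POLR2A was at 7 of 20 cytosolic and 8 of 16 mitochondrial genes, and H3K4me3 at 11 and 9. At a −log10 q of 5 or more, POLR1A was at 3 cytosolic and 4 mitochondrial genes, and at 5.36% of all genes. The 2 genes with H3K9me3 at a gene end were cytosolic, and the interval for 0 of 16 mitochondrial genes reached 20.6%.

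**Figure D2:**
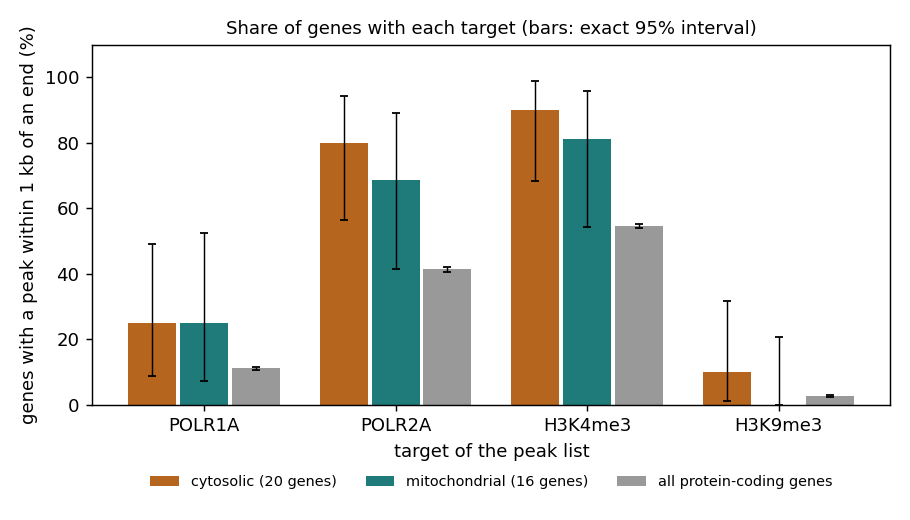
Percent of cytosolic, mitochondrial and all protein-coding genes with a peak of each target within 1 kb of a gene end, with 95% Clopper-Pearson intervals as error bars. POLR1A was found at 25% of both the cytosolic and the mitochondrial genes.

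Peak strength overlapped between the compartments too. The median POLR1A fold enrichment was 6.54 at the 5 cytosolic genes (4.71 to 7.58) and 6.59 at the 4 mitochondrial genes (6.27 to 8.19). For POLR2A the medians were 9.83 (3.73 to 17.4) and 11.0 (7.16 to 18.4). For H3K4me3 they were 13.7 (8.18 to 20.1) and 16.5 (4.40 to 19.7). Across all protein-coding genes with the target, the medians were 6.08 for POLR1A, 8.87 for POLR2A and 11.1 for H3K4me3. GARS1 and KARS1 each supply both compartments from 1 gene and were counted as cytosolic. Without them, 5 of 18 cytosolic genes had POLR1A and 14 had POLR2A.

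The genes of the multisynthetase complex, a cytosolic assembly of several synthetases on scaffold proteins, had no POLR1A, but 7 genes are too few to set this apart from the 11.2% of all genes, since the interval for 0 of 7 reached 40.96%. All 7 (EPRS1, IARS1, KARS1, LARS1, MARS1, QARS1 and RARS1) lacked it, while 5 had POLR2A (41.3% of all genes) and 6 had H3K4me3 (54.6% of all genes). EPRS1, which charges tRNAs with both glutamate and proline, had POLR2A at 10.5 and H3K4me3 at 15.3. KARS1, the lysine enzyme, had 11.2 and 12.7. MARS1, the methionine enzyme, had 8.65 and 15.1, and RARS1, the arginine enzyme, had 5.51 and 13.3. LARS1, the leucine enzyme, had POLR2A at 12.5, H3K4me3 at 14.1 and an H3K9me3 peak at 5.08. QARS1, the glutamine enzyme, had H3K4me3 at 15.5. Its nearest POLR1A peak was 1355 bp and its nearest POLR2A peak 1264 bp beyond its 3′ end, just outside the window. Beyond the window on the 5′ side, the nearest peak of any list was 15029 bp away.

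Among the other cytosolic enzymes, FARSB and FARSA encode the beta and alpha subunits of 1 enzyme. FARSB had POLR1A at 7.58, POLR2A at 13.5, H3K4me3 at 11.2 and H3K9me3 at 5.71. FARSA had H3K4me3 at 11.8 and no other target, and its nearest POLR2A peak was 3007 bp beyond its 3′ end. TARS1 had POLR1A at 7.06 and POLR2A at 15.4. TARS3, a second cytosolic threonine enzyme, had POLR2A at 9.83 and no POLR1A. Its H3K4me3 peak was 9.60 at the gene end with POLR2A and 9.63 at the other end, beside TM2D3. YARS1 had the highest POLR2A value of the cytosolic genes, 17.4, with POLR1A at 6.54 and H3K4me3 at 10.1. AARS1 had POLR1A at 5.63, POLR2A at 11.4 and H3K4me3 at 15.3. NARS1 had the lowest POLR1A value of the 9, 4.71, with POLR2A at 8.65 and H3K4me3 at 16.6.

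The cytosolic genes with POLR2A but no POLR1A covered a wide range. CARS1, the cysteine enzyme, had the lowest POLR2A value of the set, 3.73, and the highest H3K4me3 value, 20.1. GARS1, the glycine enzyme, had 5.99 and 8.18. HARS1 (histidine), SARS1 (serine) and WARS1 (tryptophan) had POLR2A at 9.04, 8.24 and 9.83 and H3K4me3 at 14.0, 13.8 and 13.6.

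Of the mitochondrial enzymes, EARS2 had the strongest POLR1A peak of the set, 8.19, with POLR2A at 15.7 and H3K4me3 at 10.4. WARS2 had 6.89, 14.96 and 10.97, and PARS2 had 6.30, 12.6 and 15.1. CARS2 had POLR1A at 6.27, POLR2A at 7.86 and H3K4me3 at 4.40, the lowest H3K4me3 value of the set. TARS2, the mitochondrial threonine enzyme, had the strongest POLR2A peak of all, 18.4, with H3K4me3 at 19.02 and no POLR1A. RARS2 (arginine), YARS2 (tyrosine) and NARS2 (asparagine) had POLR2A at 14.0, 11.0 and 10.2, again without POLR1A. MARS2 and LARS2 had 8.84 and 7.16. AARS2 and IARS2 had H3K4me3 at 19.7 and 8.74 and no POLR2A.

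HARS1 and HARS2, the cytosolic and mitochondrial histidine enzymes, face away from each other across a gap of 84 bases. Both genes therefore have the POLR2A peak at 9.04 and the H3K4me3 peak at 14.0 in common, and they are not independent observations. The stronger POLR2A peak assigned to HARS2, 10.3, lies at its 3′ end next to ZMAT2. In the same way, the CARS2 gene end with the POLR1A peak is also the end of ING1, a chromatin reader. The RefSeq start site of CARS2 lies 7007 bp inside the annotated gene, where POLR1A reached 7.81 (chr13:110706331-110707306), POLR2A 16.8, H3K4me3 7.99 and H3K9me3 6.38. For FARS2, the mitochondrial phenylalanine enzyme, the start site lies 11073 bp inside the gene and had POLR2A at 5.79 and H3K4me3 at 10.1 without POLR1A, although the gene ends had no peak.

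POLR1A was more frequent among genes with stronger POLR2A, in the set and in all genes alike. Of the 27 synthetase genes with POLR2A, 9 had POLR1A, or 33.3% (16.5 to 54.0%), while 26% of all genes with POLR2A had POLR1A. The background lies inside that interval. None of the 9 synthetase genes without POLR2A had POLR1A, against 0.748% of all genes without POLR2A. At a POLR2A fold enrichment of 5 to 10, 2 of 11 synthetase genes had POLR1A, against 13.6% of all genes. At 10 to 15 there were 4 of 11, or 36.4%, against 37.6%, and at 15 or more there were 3 of 4, or 75%, against 62.2%. TARS2 was the exception in the highest band.

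The 9 genes with POLR1A had a median POLR2A fold enrichment of 13.5 (7.86 to 17.4), and the 18 with POLR2A but no POLR1A had 9.83 (3.73 to 18.4). The medians over all genes were 13.2 and 7.79. H3K4me3 had the opposite order in the set, 11.0 (4.40 to 16.6) at the 9 genes and 14.6 (8.18 to 20.1) at the 22 without POLR1A, whereas over all genes the medians were 11.3 and 11.0. In each case the ranges of the 2 groups of synthetase genes overlapped.

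**Figure D3:**
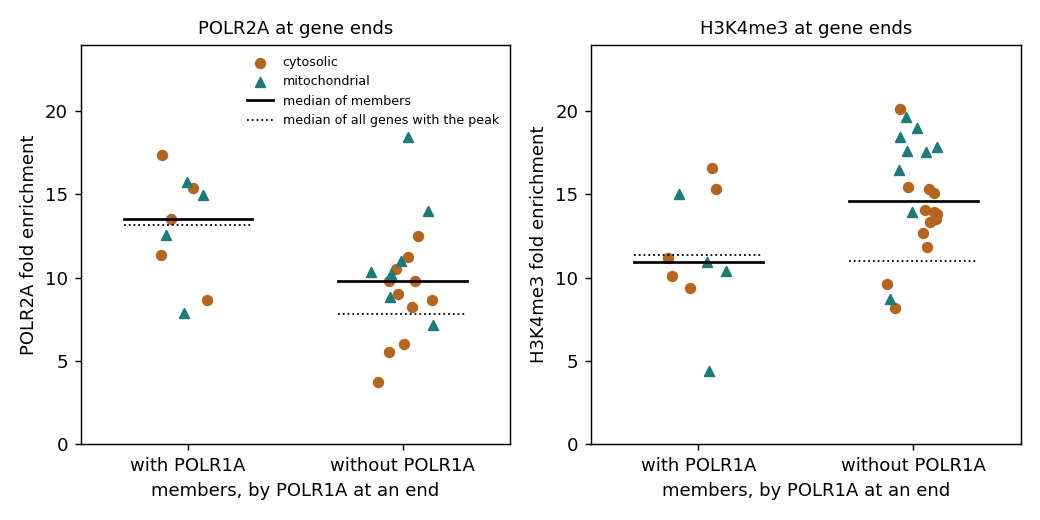
POLR2A and H3K4me3 fold enrichment (the authors' values) of synthetase genes with and without a POLR1A peak, 1 point per gene (circles cytosolic, triangles mitochondrial), with solid lines at the synthetase medians and dotted lines at the medians of all genes. POLR2A has medians of 13.5 with POLR1A and 9.83 without, and the ranges overlap.

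The POLR1A peaks lay on the POLR2A peaks. All 9 overlapped a POLR2A peak and an H3K4me3 peak, and none began at the same base as its POLR2A peak. Of the 1766 POLR1A peaks at the ends of all protein-coding genes, 1640 overlapped POLR2A and 1693 overlapped H3K4me3. Only 80 began at the same base as POLR2A, so neither trait sets the 9 peaks apart from POLR1A peaks at gene ends in general. The distance between the POLR1A and POLR2A summits was 11 bp at YARS1, 43 at EARS2, 64 at NARS1, 72 at TARS1, 84 at PARS2, 85 at AARS1, 138 at CARS2, 186 at WARS2 and 232 at FARSB. The median was 84 bp, and at all gene ends with both targets it was 66 bp. At 6 genes the POLR1A peak was covered over their whole length by POLR2A, and the shares at EARS2, NARS1 and AARS1 were 95.8%, 90.2% and 38.7%. POLR1A peaks had a median width of 344 bp, POLR2A peaks 382 bp and H3K4me3 peaks 1176 bp.

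**Figure D4:**
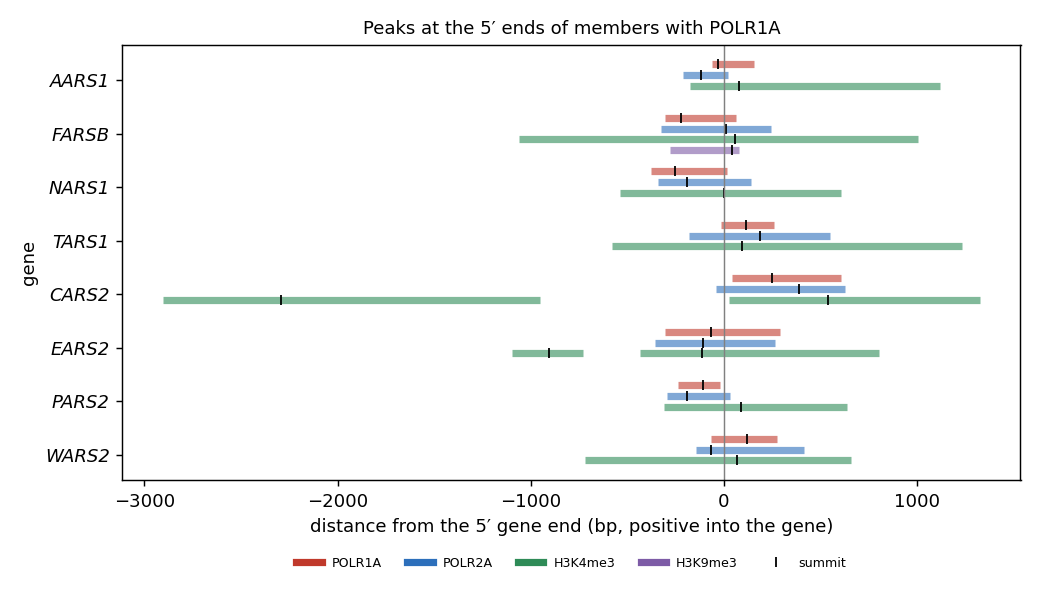
Extent and summit of the POLR1A, POLR2A and H3K4me3 peaks (H3K9me3 too at FARSB) at the 8 synthetase genes with POLR1A and a known strand, in bp from the 5′ gene end, with ticks at the summits. Each POLR1A bar overlaps a POLR2A bar, and POLR1A summits lie between −253 and 252 bp.

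POLR1A lay at 5′ ends of the synthetase genes. Among the 30 synthetase genes with a strand in the promoter table, 8 had POLR1A at the 5′ end and 0 at the 3′ end, against 11.2% and 0.911% of all genes with a strand. POLR2A was at the 5′ end of 24 and the 3′ end of 2, against 41.5% and 4.98% of all genes. The 3′ peaks belonged to AARS1, beside EXOSC6, and HARS2, beside ZMAT2. Within 1 kb of the 5′ end, the POLR1A summit had a median offset of −47.5 bp, upstream of the end (range −253 to 252).

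Other genes of the pathway had POLR1A at 21.7 to 28.6%, against 11.2% of all genes, 41.3% for POLR2A and 54.6% for H3K4me3. Of 14 genes of cofactors, amidotransferase and quality control, 4 had POLR1A (28.6%; 8.39 to 58.1%), 12 had POLR2A and 14 had H3K4me3. EEF1E1, a scaffold of the multisynthetase complex, had POLR1A at 7.79, and PSTK and SEPSECS, which make selenocysteine on its tRNA, had 5.25 and 4.94. Of 23 genes of tRNA processing and export, 5 had POLR1A (21.7%; 7.46 to 43.7%) and 14 had POLR2A. Both intervals include the share of all genes. POP7 and RPP40, subunits of ribonuclease P, had POLR1A at 7.39 and 6.37, and CLP1 and TSEN54, of the tRNA splicing endonuclease, had 6.04 and 4.91. Of 25 genes of the amino acid response, 7 had POLR1A (28%; 12.1 to 49.4%) and 19 had POLR2A. The transcription factor ATF5 had POLR1A at 8.50, the serine-synthesis enzyme PSPH 6.88, DDIT3 6.74 and DDIT4 5.64. By POLR2A the strongest genes were PTRH2 (20.9) and AIMP2 (12.9) of the first list, ELAC2 (17.2) and PRORP (14.3) of the second, and PSPH (19.03) and PSAT1 (17.3) of the last.

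RefSeq promoter sequences of GRCh38.p14, 250 bases before to 50 after the start, matched 30 of the 36 genes. LARS1, TARS3, VARS1, YARS1, AARS2 and VARS2 have no entry. These windows were searched on both strands for TGATGNAA, the core of the amino acid response element bound by ATF4 with its partners. It was found in 7 of 30 synthetase windows (23.3%) and in 2.54% of all promoter windows. It was in 6 of 16 cytosolic windows (37.5%) and in 1 of 14 mitochondrial windows (7.14%). With the fully specified form TGATGCAA, 6 of 16 cytosolic and 0 of 14 mitochondrial windows matched, against 0.670% of all. The 28 bases around each match are printed because this core was listed mostly in cytosolic windows, with capitals marking the core. Each is read in the direction that spells the core. Their places are chr16:70289676-70289703 for AARS1, chr11:3057408-3057435 for CARS1, chr9:92293693-92293720 for IARS1, chr12:57488054-57488081 for MARS1, chr18:57621805-57621832 for NARS1, chr5:33440957-33440984 for TARS1 and chr12:32756077-32756104 for YARS2. AARS1, CARS1 and IARS1 are read on the plus strand and the others on the minus strand.
AARS1: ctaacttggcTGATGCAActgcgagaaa
CARS1: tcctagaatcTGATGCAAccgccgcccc
IARS1: cgcacggaggTGATGCAAcgcgctgaaa
MARS1: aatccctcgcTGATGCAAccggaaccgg
NARS1: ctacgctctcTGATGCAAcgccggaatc
TARS1: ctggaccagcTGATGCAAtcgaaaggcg
YARS2: tccacactgcTGATGGAAaaattaagtt

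Of these 7 genes, 3 had POLR1A: AARS1, NARS1 and TARS1. Of all 401 windows with the core, 26 belonged to genes with POLR1A. The core was in 1.39% of all windows of genes with POLR1A and in 2.54% of all windows. The POLR1A peaks of AARS1 and TARS1 did not reach the printed bases, and that of NARS1 covered part of them. CARS1, MARS1 and YARS2 had POLR2A without POLR1A, and IARS1 lay in its stretch without peaks. A match is a description of the letters, and no binding of ATF4 was measured.

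The other motifs searched, on both strands, were CCAAT (the box bound by NF-Y), CCGGAAGT (bound by ETS factors), GGGCGG (the GC box), GCATGCGC (the core of the NRF1 site), CACGTG (the E-box), TCTCGCGA, TGACGTCA (the CRE) and TATAAA (the TATA box). The CCAAT box was found in 16 of 30 synthetase windows (53.3%) and 36.3% of all windows. The box was present in 7 of the 8 synthetase windows with POLR1A and 9 of 22 without, and in 48.7% of all windows of genes with POLR1A. CCGGAAGT was found in 7 windows (23.3%) against 6.20%, and GGGCGG in 21 (70%) against 58.5%. Of the windows of all genes with POLR2A, 40.4% held CCAAT, 10.3% CCGGAAGT and 72.4% GGGCGG. The GGGCGG share of the set was therefore not above that of genes with POLR2A. HARS1 and HARS2 hold the same CCGGAAGT matches in their shared gap, and both windows are counted. CACGTG was in 4 windows, GCATGCGC in 2, TCTCGCGA and TATAAA in 1 each, and TGACGTCA in none, against 8.87%, 4.26%, 1.74%, 9.64% and 2.59% of all windows. Matches overlapped in few places, such as the CCGGAAGT and GC box matches of CARS1.

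The promoters printed next show the letters beneath the POLR1A peaks, from up to 150 bases before the start, 5′ to 3′ on the gene's strand, with CCAAT and CCGGAAGT matches (either strand) in capitals. POLR1A is present at 4: AARS1 (chr16:70289507-70289656), FARSB (chr2:222656093-222656242), NARS1 (chr18:57621837-57621986) and PARS2 (chr1:54764524-54764673), all on the minus strand. The POLR1A peak covers 59 of the 150 bases at AARS1, all 150 at FARSB and NARS1, and 132 at PARS2. HARS1 (chr5:140691371-140691454, minus strand) and TARS2 (chr1:150487269-150487418, plus strand) have POLR2A without POLR1A for comparison, and the HARS1 run is the whole gap to HARS2.
AARS1: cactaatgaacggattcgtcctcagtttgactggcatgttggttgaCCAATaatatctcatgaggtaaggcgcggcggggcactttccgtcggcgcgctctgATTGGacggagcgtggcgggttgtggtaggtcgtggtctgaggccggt
FARSB: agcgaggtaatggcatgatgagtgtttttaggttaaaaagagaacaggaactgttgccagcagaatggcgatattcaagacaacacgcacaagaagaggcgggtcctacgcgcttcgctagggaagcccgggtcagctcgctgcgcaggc
NARS1: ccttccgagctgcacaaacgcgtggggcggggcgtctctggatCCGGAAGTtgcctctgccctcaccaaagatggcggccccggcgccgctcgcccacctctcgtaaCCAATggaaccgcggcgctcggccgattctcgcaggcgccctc
PARS2: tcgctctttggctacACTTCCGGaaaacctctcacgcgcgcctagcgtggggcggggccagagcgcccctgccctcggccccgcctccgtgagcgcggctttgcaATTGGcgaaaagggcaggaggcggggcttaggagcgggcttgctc
HARS1: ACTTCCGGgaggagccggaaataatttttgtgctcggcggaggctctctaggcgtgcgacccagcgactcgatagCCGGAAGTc
TARS2: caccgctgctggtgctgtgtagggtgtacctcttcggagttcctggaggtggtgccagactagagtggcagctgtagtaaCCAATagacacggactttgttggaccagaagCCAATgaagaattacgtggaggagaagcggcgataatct

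FARSB is the one POLR1A promoter of the 8 that holds no CCAAT in its window. The CARS2 window is the one at the inner start site. TARS2 holds 2 CCAAT matches, has the strongest POLR2A peak of the set and has no POLR1A peak. It is among the 9 synthetase windows with CCAAT but no POLR1A. A link between the box and POLR1A was not tested.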

How the data were processed

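CUT&Tag was performed with antibodies against POLR1A, POLR2A, H3K4me3 and H3K9me3 in HCT116 cells. The 4 deposited peak lists hold the authors' fold enrichment (a linear ratio) and −log10 q for every peak, as deposited. The H3K4me3 list belongs to its sample; the other 3 were matched to POLR1A, POLR2A and H3K9me3 by the abbreviated names P1AB, P2AB and K9AB in the files, which the labels do not spell out. The lists also carry an integer score that the authors deposited, which was not used. Peak names carry macs2; how it was run, against what control and on which replicates is not given in the sources used here. GRCh38, FastQC 0.12.0, STAR, SAMtools 1.6 and deepTools 3.1.1 are listed without roles in the submitters' processing notes.

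A peak counted for a gene when it overlapped by 1 bp or more the 1 kb on either side of a RefSeq GRCh38.p14 gene end. Genes on other scaffolds (679) were left out, as were peaks there. Shares have exact Clopper-Pearson intervals. Python 3.11.15, pandas 2.3.3, numpy 2.4.6, SciPy 1.17.1 and matplotlib 3.10.9 were used, and the counting was tested on simulated data. All 36 genes are named. Of each other list, up to 4 genes by POLR1A and 2 by POLR2A fold enrichment qualified, and these are described, except 1 that is not reported here. The genes, the other lists and the motifs were chosen with earlier results of these data known. The motif and neighbour comparisons are descriptions. Alternatives were a −log10 q minimum of 5, windows of 500 bp and 2 kb, the 5′ end only, lists of equal length, the summit inside the window, leaving out GARS1 and KARS1 and, chosen after seeing the data, the RefSeq start site and leaving out genes in peak-free stretches.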

Additional observations from a re-analysis of the deposited data

How the results depend on the processing

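Of 105 recomputed values, 97 stayed close to the reported one and 8 moved. Some of the 97 could not move. The POLR1A list is the shortest, so lists of equal length left it whole. Leaving out peak-free genes removed no counted gene, and GARS1 and KARS1 had no POLR1A to lose. Close was also a loose label: POLR1A at 7 genes instead of 9, at a −log10 q of 5 or more, still counted as close. At a −log10 q of 5 or more, 0 genes kept H3K9me3 and 3 cytosolic genes had POLR1A, AARS1 and NARS1 having dropped out. The shares of all genes fell too, to 0.590% for H3K9me3 and 5.36% for POLR1A. With lists of equal length, POLR2A was at 15 genes and H3K4me3 at 20, of which 7 and 11 were cytosolic, and H3K9me3 was at 1. The share of all genes then fell to 17.3% for POLR2A, 17.8% for H3K4me3 and 0.656% for H3K9me3. With the 5′ end only, 1 of 30 genes had H3K9me3, against 2.16% of all genes with a strand. LARS1 has no strand in the promoter table and could not be counted in this setting. The mitochondrial count stayed at 4 for POLR1A at a −log10 q of 5, and the mitochondrial counts with lists of equal length were 8 for POLR2A and 9 for H3K4me3, so the cytosolic genes no longer had the larger shares. At the RefSeq start site, POLR2A was at 13 of 16 cytosolic and 12 of 14 mitochondrial genes, against 42.1% of all genes with a strand. H3K4me3 was at 15 and 13, against 56.4%. H3K9me3 was there at FARSB and the mitochondrial CARS2, against 2.15%. A window of 2 kb added POLR1A and POLR2A beyond the 3′ end of QARS1 and H3K9me3 at TARS3, making 3 genes with H3K9me3. The shares of all genes were then 12.1% for POLR1A, 44.65% for POLR2A and 3.99% for H3K9me3. No paired analysis was possible because each target has 1 peak list that carries no replicate column, and leaving out a replicate could not be done for the same reason. Depth is unknown, so absence of a peak is not a measure of absence of signal.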

Other observations

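The descriptions here were made after the values were seen. Of the 16 amino acids with a gene in each compartment, none had POLR1A at both genes, 5 had it at the cytosolic gene only, 4 at the mitochondrial gene only and 7 at neither. POLR1A was at 25% of the genes of each compartment, and nothing is read from the count. POLR2A was at both genes for 11, and H3K4me3 at both for 12. EPRS1 was counted for both glutamate and proline. For phenylalanine (FARSA, FARSB) and threonine (TARS1, TARS3), a peak at either cytosolic gene sufficed. The histidine genes share a POLR2A and an H3K4me3 peak, so these counts are not of independent pairs. No like share over all genes was computed.

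The strongest POLR2A peak was also within 1 kb of another gene's end at 7 of the 9 genes with POLR1A (77.8%) and 6 of the 18 with POLR2A but no POLR1A (33.3%), against 61.9% and 48.1% of all genes. The neighbours were DDX19B at AARS1, LOC124907985 at FARSB, TARS1-DT at TARS1, S100PBP at YARS1, ING1 at CARS2, UBFD1 at EARS2 and WARS2-AS1 at WARS2. A peak in such a gap cannot be assigned to 1 of the genes. The POLR2A peaks had a median width of 562 bp with POLR1A and 287 bp without, against 472 and 297 bp over all genes.

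Inside the genes, beyond 1 kb of the ends, POLR1A was found only in CARS2, POLR2A at 15 peaks in 10 genes, and H3K4me3 and H3K9me3 at 3 peaks in 3 genes each. Of all protein-coding genes, 4.72% had such an internal POLR1A peak, 23.6% POLR2A, 14.6% H3K4me3 and 12.3% H3K9me3, against 2.78%, 27.8%, 8.33% and 8.33% of the synthetase genes. The POLR1A peak of CARS2 and the strongest internal POLR2A peaks of CARS2 and FARS2 lie at the RefSeq start sites, 7007 and 11073 bp inside the genes. The H3K9me3 peaks were in TARS3 (6.34, 1452 bp from an end), CARS2 (6.38) and FARS2 (4.46).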
